A study of Mus musculus with 24 samples.

Results

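The genes described here mark the B cell follicles of the gut and the epithelium that covers them: Ms4a1, Cd79a, Cr2, Fcer2a, Cxcr5, Cxcl13, Gp2, Ccl20 and Spib. They were chosen by gene symbol, and all 9 were found among the 34471 genes with a count in at least 1 library (56691 genes are listed in the count table). Poly(A) RNA of the distal jejunum, the lower part of the middle small intestine, was sequenced from 24 mice, 3 in each of 8 groups formed by sex, genotype and treatment. Wild type (WT) and Ptk6-/- mice, in which the intracellular tyrosine kinase PTK6 is lost from the germline and so from every cell type, were both on a C57BL/6 background after more than 20 generations of backcrossing. Controls drank regular water, and the treated mice drank water with 100 mM succinate, a metabolite that tuft cells sense, for 7 days. The mice were 9 to 11 weeks old at the end of the experiment, were matched for age, and came from different litters of the same colony. The question for these genes was whether loss of Ptk6 or succinate moved follicle and M cell transcripts, and whether single libraries carried a follicle signature of their own.

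In the small intestine, B cells gather in Peyer's patches and in smaller isolated lymphoid follicles that are scattered along the wall. Stromal cells in a follicle release the chemokine CXCL13, which draws B cells that carry its receptor CXCR5. The epithelium above a follicle holds M cells, which take up bacteria from the lumen and pass them to the immune cells beneath, and releases CCL20, which attracts cells with the receptor CCR6. The labels do not say whether a piece of jejunum held a Peyer's patch.

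Total counts lay between 8080321 and 52824743 per library (median 43017686.5). Ptk6 had 284 to 2405 counts in the WT libraries and 7 to 61 in the Ptk6-/- libraries, which checks the genotype labels. The summed level of 11 intestinal epithelial genes was high in every library (13691 to 32911 CPM, counts scaled to a common library total). There were 3 libraries that stood apart by depth, ribosomal RNA or heart transcripts, and they were left out together: Ptk6-/- male succinate replicate 1 was the shallowest and had 29.7% of its counts on the 18S ribosomal RNA gene Rn18s-rs5, WT male control replicate 1 had 51.2% on that gene, and WT female succinate replicate 2 carried heart muscle transcripts (Myh6, 9001 CPM against a median of 1.34 CPM in the other 23). WT female succinate replicate 3 stood apart by other tissue and was left out on its own. Its mesothelium and fat genes summed to 67.0 CPM, the highest of all libraries (4.66 and 8.55 CPM in the other two of its group). Its lung genes, at 14.8 CPM, were as high as in the 6 Ptk6-/- females (5.93 to 16.8 CPM over these 7 libraries, at most 0.717 CPM in the other 17). Values without these libraries are given beside the comparisons that hold them, for single genes or for the count of calls. All CPM values below were scaled by the TMM (trimmed mean of M values) factors over the 24 libraries. In bulk tissue, fewer cells of a type and less RNA per cell cannot be told apart.

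Compared per length, as fragments scaled to exon length and library size (FPKM), the B cell receptor subunit Cd79a was the most abundant of the 9 transcripts, with a mean of 9.39 FPKM over the 24 libraries. Spib followed at 3.31 FPKM, Cxcl13 at 2.56 FPKM and Ccl20 at 1.12 FPKM. The other 5 were near the lower end of detection: Fcer2a had a mean of 0.735 FPKM, Cxcr5 0.515 FPKM, Ms4a1 0.386 FPKM, Gp2 0.314 FPKM and Cr2 0.209 FPKM. Medians gave a different order for neighbours. Cxcl13 (2.14 FPKM) stood just above Spib (2.10 FPKM), and Ccl20, whose mean rests on 1 library, fell to 0.423 FPKM. The ranges of neighbouring genes in this order overlapped over the libraries. Cr2 had no count in 5 libraries, Cxcr5 and Gp2 had none in 3 each, and Ms4a1, Fcer2a and Ccl20 had none in 1 each. Cd79a, Cxcl13 and Spib were counted in all 24.

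On the GRCm39 build, as the deposited table gives the positions, Ms4a1 (ENSMUSG00000024673) lies on chromosome 19 at 11227039 to 11243605 on the minus strand, Cd79a (ENSMUSG00000003379) on chromosome 7 at 24596806 to 24601622 on the plus strand, and Cr2 (ENSMUSG00000026616) on chromosome 1 at 194819119 to 194859024 on the minus strand. Fcer2a (ENSMUSG00000005540) lies on chromosome 8 at 3731737 to 3744175 and Cxcr5 (ENSMUSG00000047880) on chromosome 9 at 44423084 to 44473174, both on the minus strand. Cxcl13 (ENSMUSG00000023078) lies on chromosome 5 at 96104810 to 96108927 and Ccl20 (ENSMUSG00000026166) on chromosome 1 at 83094487 to 83096888, both on the plus strand. Gp2 (ENSMUSG00000030954) lies on chromosome 7 at 119041760 to 119058508 and Spib (ENSMUSG00000008193) on chromosome 7 at 44175417 to 44181495, both on the minus strand. All 9 code for proteins. Ms4a1 overlaps 4930526L06Rik on the other strand, which had at most 24 counts in any library, and Cxcr5 overlaps an unnamed gene on its own strand with at most 3 counts. The other 7 overlap none of the 34471 genes with a count in at least 1 library, and genes without a count were not checked.

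The promoters of 7 of the 9 genes matched RefSeq's table of mouse promoters on GRCm38.p6, an older build whose coordinates differ from those above. Each window runs from 250 bases before to 50 after the start of the transcript. Those of 3 genes are shown, since these are the genes with the most distinct patterns below. They are Cd79a, the most abundant of the 9 transcripts, Ccl20, which was high in a single library, and Spib, called higher with succinate on average. Capitals mark matches, on either strand, to the ETS core GAGGAA of the factors PU.1 and SPI-B, to the EBF motif CCCNNGGG or to the kappaB consensus.
Cd79a, chr7:24897247-24897546, plus strand: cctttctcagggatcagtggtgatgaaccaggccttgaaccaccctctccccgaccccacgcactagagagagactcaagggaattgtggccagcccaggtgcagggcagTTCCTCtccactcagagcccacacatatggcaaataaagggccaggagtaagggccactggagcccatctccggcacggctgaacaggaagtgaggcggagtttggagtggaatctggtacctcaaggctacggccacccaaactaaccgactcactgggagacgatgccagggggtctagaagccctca
Ccl20, chr1:83116516-83116815, plus strand: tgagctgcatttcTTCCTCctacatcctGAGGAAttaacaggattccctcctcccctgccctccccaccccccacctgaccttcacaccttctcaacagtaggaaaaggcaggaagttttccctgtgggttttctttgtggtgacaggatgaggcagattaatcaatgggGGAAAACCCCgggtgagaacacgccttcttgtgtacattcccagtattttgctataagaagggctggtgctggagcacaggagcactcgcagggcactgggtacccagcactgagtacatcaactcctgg
Spib, chr7:44532022-44532321, minus strand: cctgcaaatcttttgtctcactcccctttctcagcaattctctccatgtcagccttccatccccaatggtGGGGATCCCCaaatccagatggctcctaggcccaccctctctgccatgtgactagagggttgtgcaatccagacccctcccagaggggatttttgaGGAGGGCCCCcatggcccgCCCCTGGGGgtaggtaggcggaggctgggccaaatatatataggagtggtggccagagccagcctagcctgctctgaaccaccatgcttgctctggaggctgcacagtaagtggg
The Cd79a window held 1 ETS core on the minus strand, at -140 from the start site. In the Ccl20 window there were ETS cores at -237 (minus strand) and -222 (plus strand) and a kappaB match at -80 (minus strand). For Spib, kappaB matches stood at -180 (plus strand) and -84 (minus strand), and a pair of overlapping EBF matches at -65 and -64. The Gp2 window held an ETS core at 13, and the windows of Cr2, Fcer2a and Cxcl13 held none of the motifs. The octamer ATGCAAAT was found in none of the members' windows. Of all 32851 promoters of this length in the table, 28.3% held the ETS core, 13.7% the EBF motif, 8.46% the kappaB consensus and 1.74% the octamer. A match describes the letters and is not a bound site.

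Ms4a1 codes for CD20, a surface protein of B cells from the pre-B stage until they become plasma cells. In males it had 6.63, 1.72 and 0.891 CPM in the WT controls (replicates 1, 2 and 3), 11.5, 5.48 and 8.004 CPM in WT mice on succinate, 0.990, 5.95 and 0.327 CPM in the Ptk6-/- controls, and 0, 0.711 and 2.08 CPM in Ptk6-/- mice on succinate. In females it had 1.29, 0.432 and 0.287 CPM in the WT controls, 0.694, 3.01 and 4.35 CPM in WT mice on succinate, 3.94, 5.97 and 1.59 CPM in the Ptk6-/- controls, and 0.432, 0.178 and 8.68 CPM in Ptk6-/- mice on succinate. The 3 WT males on succinate lay above every Ptk6-/- male on succinate, while in the Ptk6-/- females on succinate 1 mouse held nearly all of the signal.

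Cd79a codes for a signalling subunit of the B cell receptor, and is also transcribed in plasma cells. Its levels in males were 29.2, 12.7 and 9.41 CPM in the WT controls, 28.3, 57.7 and 48.0 CPM in WT mice on succinate, 7.74, 17.1 and 9.80 CPM in the Ptk6-/- controls, and 12.3, 8.59 and 18.003 CPM in Ptk6-/- mice on succinate. Its levels in females were 10.3, 14.4 and 8.68 CPM in the WT controls, 13.3, 37.8 and 14.5 CPM in WT mice on succinate, 15.3, 22.3 and 16.5 CPM in the Ptk6-/- controls, and 7.91, 10.9 and 22.8 CPM in Ptk6-/- mice on succinate. Cd79a varied less than Ms4a1: its highest library, WT male succinate replicate 2, stood 3.9996 times above the median of all libraries, against 6.94 times for the highest library of Ms4a1.

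Cr2 codes for the complement receptor CD21 of mature B cells and follicular dendritic cells. In males, Cr2 had 3.15, 1.11 and 0.364 CPM in the WT controls, 7.87, 6.15 and 5.74 CPM in WT mice on succinate, 0.220, 4.52 and 0.0436 CPM in the Ptk6-/- controls, and 0, 0 and 1.29 CPM in Ptk6-/- mice on succinate. In females, Cr2 had 0.985, 0.194 and 0 CPM in the WT controls, 0, 2.49 and 3.01 CPM in WT mice on succinate, 3.83, 4.63 and 0.433 CPM in the Ptk6-/- controls, and 0, 0.217 and 6.66 CPM in Ptk6-/- mice on succinate. Its highest 3 male libraries were the WT mice on succinate, and 4 of the 8 groups held at least 1 library with no Cr2 count. A count of 0 allows up to 3 counts, which is 0.823 CPM in the shallow Ptk6-/- male succinate replicate 1 and under 0.1 CPM in the other libraries at 0.

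Fcer2a codes for CD23, the low-affinity receptor for IgE, found on mature follicular B cells. Male values of Fcer2a were 5.74, 1.53 and 0.425 CPM in the WT controls, 9.79, 4.11 and 7.02 CPM in WT mice on succinate, 0.293, 6.98 and 0.348 CPM in the Ptk6-/- controls, and 2.47, 0.654 and 1.66 CPM in Ptk6-/- mice on succinate. Female values were 1.09, 0.389 and 0.132 CPM in the WT controls, 0.462, 4.37 and 3.45 CPM in WT mice on succinate, 5.53, 7.84 and 0.722 CPM in the Ptk6-/- controls, and 0, 0.316 and 7.44 CPM in Ptk6-/- mice on succinate. Within the Ptk6-/- male controls and the Ptk6-/- females on succinate, a single mouse was high and the other two were low.

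Cxcr5, the chemokine receptor that guides B cells into follicles, followed the same libraries. It had 3.23, 1.303 and 0.709 CPM in the WT male controls, 7.38, 5.06 and 6.05 CPM in WT males on succinate, 0.678, 4.84 and 0.740 CPM in the Ptk6-/- male controls, and 0, 0 and 2.02 CPM in Ptk6-/- males on succinate. It had 1.18, 0.0864 and 0.199 CPM in the WT female controls, 0.601, 1.85 and 3.35 CPM in WT females on succinate, 2.83, 5.50 and 0.750 CPM in the Ptk6-/- female controls, and 0.306, 0 and 4.75 CPM in Ptk6-/- females on succinate. The lowest WT male on succinate was above the highest library of all other male groups.

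Cxcl13, the ligand of CXCR5, is made by follicular stroma and not by the B cells themselves. Among males, Cxcl13 had 8.09, 2.74 and 1.44 CPM in the WT controls, 9.47, 5.95 and 9.02 CPM in WT mice on succinate, 2.29, 6.65 and 1.13 CPM in the Ptk6-/- controls, and 1.65, 1.37 and 4.12 CPM in Ptk6-/- mice on succinate. Among females, Cxcl13 had 4.31, 3.74 and 1.06 CPM in the WT controls, 0.370, 2.91 and 3.76 CPM in WT mice on succinate, 4.96, 8.26 and 3.84 CPM in the Ptk6-/- controls, and 1.10, 0.947 and 6.39 CPM in Ptk6-/- mice on succinate. It was counted in every library, and its highest value stood only 2.53 times above its median.

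Gp2 codes for the M cell receptor that binds FimH-bearing bacteria, and had the lowest median count of the 9 genes (24). In males, Gp2 had 0.728, 0.643 and 0.547 CPM in the WT controls, 2.57, 2.71 and 1.57 CPM in WT mice on succinate, 0.385, 1.71 and 0 CPM in the Ptk6-/- controls, and 0, 0.427 and 0.222 CPM in Ptk6-/- mice on succinate. In females, Gp2 had 1.49, 0.993 and 0.265 CPM in the WT controls, 0.231, 0 and 0.978 CPM in WT mice on succinate, 0.732, 1.89 and 0.404 CPM in the Ptk6-/- controls, and 0.342, 0.414 and 0.610 CPM in Ptk6-/- mice on succinate. The WT males on succinate did not overlap the WT male controls, whereas the female groups overlapped. Of the 11 further genes of M cells and follicle-associated epithelium, Sox8, a factor of M cell maturation, was lower than Gp2. It had 0 to 0.583 CPM (median 0.286 CPM, against 0.578 CPM for Gp2) and 5 libraries at 0. Tnfrsf11b, the decoy receptor for RANKL, was at 0 in 1 library. The other 9 were counted in every library, with medians from 5.50 CPM for Aif1 to 87.4 CPM for Pglyrp1.

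Ccl20 codes for the chemokine of the follicle-associated epithelium. Its male values were 0.889, 1.75 and 1.13 CPM in the WT controls, 1.51, 3.62 and 1.06 CPM in WT mice on succinate, 1.41, 0.876 and 0.414 CPM in the Ptk6-/- controls, and 0, 28.5 and 1.04 CPM in Ptk6-/- mice on succinate. Its female values were 0.744, 2.09 and 0.618 CPM in the WT controls, 0.231, 0.194 and 0.566 CPM in WT mice on succinate, 2.10, 1.68 and 0.808 CPM in the Ptk6-/- controls, and 0.557, 0.0986 and 0.458 CPM in Ptk6-/- mice on succinate. One library, Ptk6-/- male succinate replicate 2, held 1002 counts and stood 32.3 times above the median. In females every succinate library was below every control library of its genotype.

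Spib codes for an Ets-family transcription factor that M cells need to mature and that B cells also express. In males, Spib had 10.4, 4.39 and 2.87 CPM in the WT controls, 19.2, 16.8 and 19.9 CPM in WT mice on succinate, 3.72, 12.7 and 2.33 CPM in the Ptk6-/- controls, and 1.92, 2.67 and 7.12 CPM in Ptk6-/- mice on succinate. In females, Spib had 7.68, 2.70 and 3.20 CPM in the WT controls, 27.5, 33.9 and 16.1 CPM in WT mice on succinate, 7.51, 9.26 and 4.96 CPM in the Ptk6-/- controls, and 12.3, 21.7 and 45.7 CPM in Ptk6-/- mice on succinate. Of the 4 succinate groups, 3 lay wholly above their controls, the Ptk6-/- males being the exception.

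**Figure D1:**
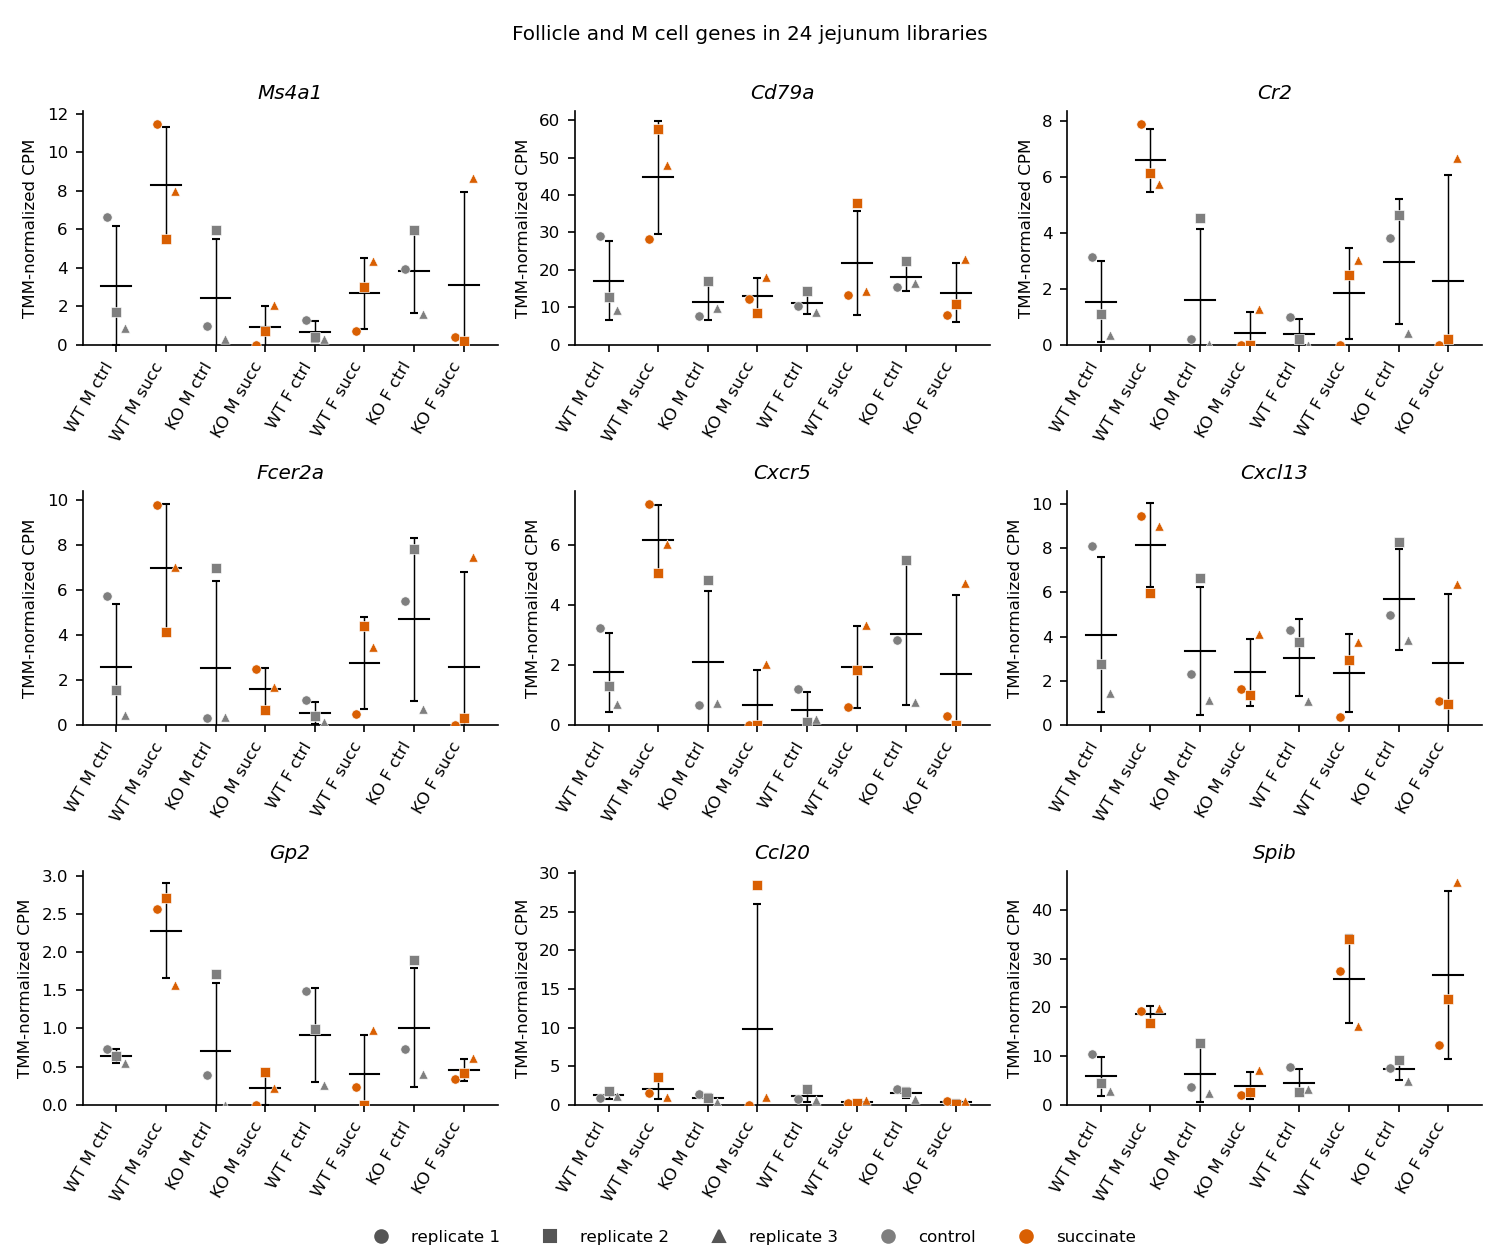
TMM-normalized CPM (y axis) of each of the 9 genes in the 8 groups (x axis; KO is Ptk6-/-, M male, F female, ctrl control, succ succinate); symbols are the 3 replicates, lines the mean and bars 1 SD, cut at 0 by the axis. Ms4a1, Cr2, Fcer2a and Cxcr5 share their high libraries, Ccl20 is high in 1 library (28.5 CPM), and Spib is highest in the female succinate groups.

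To read single libraries, Ms4a1, Cr2, Fcer2a and Cxcr5 were summed, a set chosen after the values were seen. The sum ran from 0.618 CPM in WT female control replicate 3 (28 counts) to 36.5 CPM in WT male succinate replicate 1 (2078 counts), with a median of 5.11 CPM. The WT males on succinate had 36.5, 20.8 and 26.8 CPM, and they were the only group in which every library was high. In the WT male controls the sums were 18.8, 5.66 and 2.39 CPM, the first of them from the library with the large 18S share, which ranked 7 of 24 by CPM and 10 of 24 by FPKM. Ptk6-/- male controls had 2.18, 22.3 and 1.46 CPM, and Ptk6-/- males on succinate 2.47, 1.37 and 7.05 CPM. Only replicate 2 of those controls was high. Among females, the WT controls had 4.55, 1.10 and 0.618 CPM and WT mice on succinate 1.76, 11.7 and 14.2 CPM. The Ptk6-/- female controls had 16.1, 23.9 and 3.49 CPM, and the Ptk6-/- females on succinate 0.737, 0.710 and 27.5 CPM. So libraries with a high sum were found among control and succinate mice, in both sexes and in both genotypes.

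**Figure D2:**
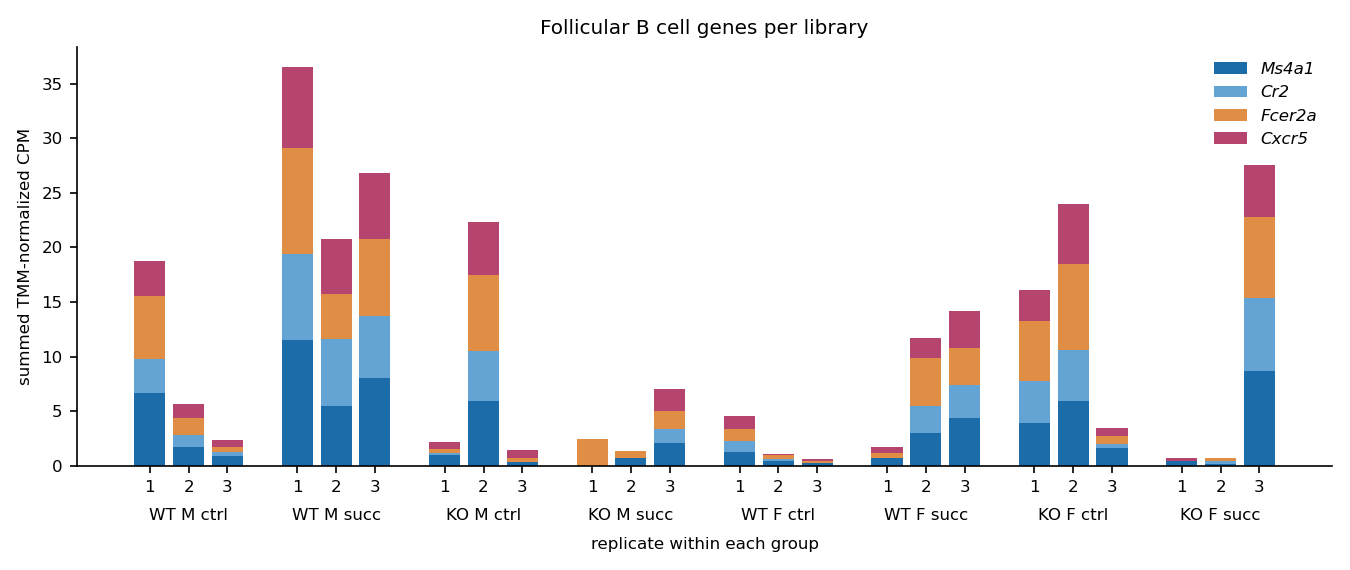
Summed TMM-normalized CPM (y axis) of Ms4a1, Cr2, Fcer2a and Cxcr5 in each of the 24 libraries, by group and replicate (x axis; KO is Ptk6-/-). All 3 WT males on succinate are high (20.8 to 36.5 CPM), while the Ptk6-/- females on succinate hold 2 libraries under 1 CPM and 1 at 27.5 CPM.

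Across the 24 libraries these 4 genes went together, with Pearson's r of log2(CPM + 0.5) from 0.866 to 0.964 over the 6 pairs. The libraries share depth and scaling, so the values are given as a description. After each group's mean was subtracted, r was still 0.850 to 0.943, so the agreement lay among mice of the same group. Cxcl13 correlated with the 4 at 0.836 to 0.886 (0.866 to 0.919 within groups) although it comes from stroma. Cd79a was looser, at 0.747 to 0.800 (0.597 to 0.688 within groups), and Gp2 lower again, at 0.545 to 0.694 (0.501 to 0.605). Spib gave 0.507 to 0.609, and more within groups, 0.731 to 0.798. For Ccl20, r with the other 8 genes lay between -0.295 and 0.360. In the 21 libraries left without those that stood apart, r was 0.938 to 0.972 among the 4 genes, and with the 4 it was 0.838 to 0.894 for Cxcl13, 0.770 to 0.813 for Cd79a, 0.695 to 0.777 for Gp2 and 0.543 to 0.576 for Spib. There Ccl20 gave -0.388 to 0.228 with the other 8. Without WT female succinate replicate 3 as well, r among the 4 was 0.936 to 0.972 over 20 libraries.

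**Figure D3:**
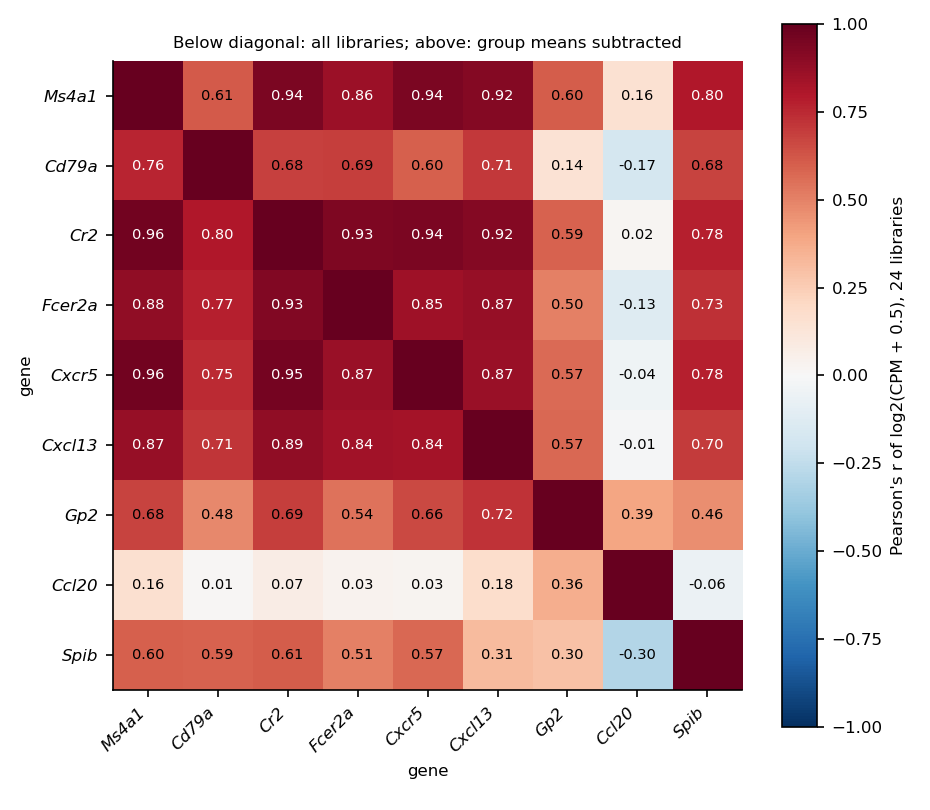
Pearson's r of log2(CPM + 0.5) between the 9 genes (both axes) over 24 libraries, below the diagonal as measured and above it with group means subtracted; colour gives r. The block of Ms4a1, Cr2, Fcer2a, Cxcr5 and Cxcl13 is high on both sides (0.836 or more), and Ccl20 is near 0 with most of the others.

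Lists of other genes gave the cell types that moved with them. Ms4a1 correlated with the mean of 20 other B cell genes at r = 0.974, with 8 germinal centre genes at 0.889, with 10 T cell and T zone genes at 0.608 and with 10 genes of follicular stroma and lymphotoxin signalling at 0.601. With 8 plasma cell genes r was 0.171 (-0.024 within groups). With 11 further genes of M cells and follicle-associated epithelium it was -0.312 (-0.636 within groups). Gp2 correlated with the T cell list at 0.705 (0.653 within groups) and with that M cell list at -0.004 (-0.237 within groups). Of the 15061 genes with a symbol and a mean of at least 20 counts, those most like Ms4a1 were Cr2 (r = 0.964), Cxcr5 (0.962), Cd22 (0.957), Fcmr (0.953) and Fcrl1 (0.945), the last 3 being B cell surface receptors. Those most like Cxcl13 were Cd22 (0.902), Cr2 (0.886), Fcrla (0.880), Stra6 (0.880) and Ms4a1 (0.873). Gp2 had weaker neighbours, Rubcnl (0.754), H2-Eb2 (0.751), Gcsam (0.747), Ms4a4c (0.732) and Myo1g (0.730). The 5 most like Ccl20 were Igkv3-1 (0.794), Bid (0.752), Slc11a2 (0.719), H2-Q4 (0.684) and Chst8 (0.667), and each of the 5 had its highest value in the library where Ccl20 was high, although by different margins (Igkv3-1 46.9 CPM against 11.4 CPM in the next library, H2-Q4 146.1 CPM against 138.4 CPM). For Spib the neighbours were Irag2 (0.895), Il9r (0.870), Gsdmcl2 (0.869), Rgs13 (0.862) and Treml2 (0.860), of which Irag2 and Rgs13 are on the tuft cell list.

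Succinate was compared with control in WT males first. All 9 estimates were above 0. Their median log2 fold change was 1.49, against 0.02 over all genes tested, but none was called by edgeR (adjusted p under 0.05 and at least 2-fold, which also called 0% of all genes). At an unadjusted p under 0.05 there were 5, Cd79a, Cr2, Cxcr5, Gp2 and Spib, where 4.07% of all genes passed. Gp2 had a log2 fold change of 1.84 (SE 0.408) and Spib one of 1.66 (SE 0.469), both with an edgeR adjusted p of 0.947. The B cell genes Cr2 (2.16, SE 0.692), Cxcr5 (1.86, SE 0.553) and Cd79a (1.37, SE 0.471) had the same adjusted p. In 4 of them, Cr2, Cxcr5, Gp2 and Spib, every succinate library was above every control, a pattern held by 4.62% of all genes. DESeq2 called 1, Gp2 (adjusted p = 0.0298), among 47 genes in all, and limma voom with library weights called 8 among 1556. When WT male succinate replicate 1 was left out, edgeR also called Gp2 (adjusted p = 0.0418), then 1 of 1077 genes called. Without WT male control replicate 1, the library with the large 18S share, the estimates were larger for Cr2 (3.17), Cxcr5 (2.63), Spib (2.38) and Cd79a (2.03), and edgeR still called none. In that fit 8 of the 9 had an unadjusted p under 0.05, now also Ms4a1 (2.69), Fcer2a (2.85) and Cxcl13 (1.98). There edgeR called 1 gene in all. The 4.07% above is from the fit with every library, so this count of 8 has no share beside it.

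The wider B cell, stromal, smooth muscle and tuft cell lists had higher medians in this comparison too, without a call. So did the germinal centre list (median 0.88, with 7 of 8 higher and 2 at an unadjusted p under 0.05). Rgs13, the germinal centre gene with the smallest p here, is on the tuft cell list too and counts in both. All 20 other B cell genes had higher estimates (median 0.98; 6 at an unadjusted p under 0.05), among them Cd79b, the partner of Cd79a, at 1.22 (SE 0.411) and Tnfrsf13c, the receptor for BAFF, at 1.18 (SE 0.409). The 10 stromal and lymphotoxin genes all had higher estimates (median 1.17; 4 at an unadjusted p under 0.05). Ltb, a lymphotoxin subunit, stood at 1.42 (SE 0.506) and Ccl19, a chemokine of the T zone, at 2.03 (SE 0.792). Of the M cell list 8 of 11 had higher estimates, but the median was 0.13 and 1 passed, Marcksl1, at 1.501 (SE 0.561). Smooth muscle genes had a median of 1.00, with 1 of 6 under 0.05, and tuft cell genes one of 0.99, with 8 of 13. The T cell list (median 0.19, 6 of 10 higher), the plasma cell list (median 0.15) and the intestinal epithelial list (median 0.01, 6 of 11 higher) lay closer to the median of all genes, and 4 of 5 mesothelium and fat genes had lower estimates (median -0.44). Their part in the result was not tested.

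In males on succinate, the 2 genotypes were compared next. All members but Ccl20, 8 of 9, had lower estimates in Ptk6-/- mice, each with an unadjusted p under 0.05 (2.72% of all genes) and with no overlap between the groups (5.89% of all genes were lower in that way). The median log2 fold change of the 9 was -2.22, against -0.03 over all genes tested. By edgeR none was called (0% of all genes were), with adjusted p from 0.968 for Cd79a and Spib to 1.00. Ms4a1 had a log2 fold change of -2.92 (SE 0.786), Cr2 one of -3.60 (SE 1.21), Cxcr5 one of -2.92 (SE 1.27) and Fcer2a one of -2.22 (SE 0.622). Cd79a stood at -1.75 (SE 0.393) and the stromal Cxcl13 at -1.72 (SE 0.520). Gp2 had an estimate of -3.03 (SE 0.740) and Spib, which B cells also express, one of -2.18 (SE 0.485). DESeq2 called 4 of the 9: Spib (adjusted p = 0.0149), Gp2 (0.0171), Ms4a1 (0.0188) and Cd79a (0.0417), out of 67 genes it called in all. It gave no p for Ccl20. The voom fit called 8 of the 9 and 1927 genes in all. Without Ptk6-/- male succinate replicate 1, the shallow library, the log2 fold changes were -2.61 for Ms4a1, -1.78 for Cd79a, -3.36 for Cr2, -2.62 for Fcer2a, -2.63 for Cxcr5, -1.60 for Cxcl13, -2.85 for Gp2 and -1.96 for Spib, and edgeR called none. In that fit Cxcr5 no longer had an unadjusted p under 0.05, and Ccl20 passed in the other direction (2.82). With every library Ccl20 stood at 2.32 (SE 1.38), and with 1 library left out at a time it ran from -1.59 to 2.96. Replicate 3 was the only Ptk6-/- male on succinate with counts of Cr2 and Cxcr5. Without it the fitted log2 fold changes went to -10.94 for Cr2 and -10.85 for Cxcr5, which stand against libraries at 0 and are no bound, and Ms4a1 went to -4.01.

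In the wider B cell list 19 of 20 genes had lower estimates in Ptk6-/- males on succinate (median -1.90; 14 at an unadjusted p under 0.05). The heavy chain gene Ighm (-2.11, SE 0.350), the B cell factor Pax5 (-3.25, SE 0.549) and Cd22 (-2.02, SE 0.424) had the smallest p. Of 8 germinal centre genes 4 passed, led by Gcsam (-4.29, SE 1.09) and Mef2b (-3.04, SE 0.796), and 3 of 10 stromal genes, Madcam1 (-1.77, SE 0.460), Ccl19 (-3.84, SE 1.27) and Tnfsf11 (-1.81, SE 0.750). The plasma cell list (median -0.18, 0 of 8 passing) and the M cell list (median -0.04, 0 of 11) were near the median of all genes. Tuft cell genes had lower estimates in 13 of 14 cases (median -1.04; 1 passing), and heart muscle genes higher ones in 5 of 5 (median 1.79; 3 passing). Mesothelium and fat genes had higher estimates in 4 of 5 cases (median 0.65; 2 passing), and smooth muscle genes lower ones in 5 of 6 (median -0.56; 0 passing). Their part in the result was not tested.

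In control males, loss of Ptk6 left no member past an unadjusted p of 0.05 by edgeR, although 25.2% of all genes passed it and 0.739% were called. None of the members was free of overlap between the groups, where 16.5% of all genes were higher without overlap. DESeq2 called 0 and had 0 at an unadjusted p under 0.05. It gave no adjusted p for 3 of the 9, Cr2, Gp2 and Ccl20, so these could not be called. The estimates lay between -0.59 for Cd79a (95% interval -1.65 to 0.47) and 0.30 for Cxcr5 (95% interval -1.68 to 2.28). Intervals of this width do not show that the genotypes were alike. The estimates turned on single libraries. Without WT male control replicate 1 Fcer2a stood at 1.38, Cr2 at 1.11, Cxcr5 at 1.06, Ms4a1 at 0.91 and Cd79a at 0.08, with no member called by edgeR beside 211 genes called in all. Without Ptk6-/- male control replicate 2, the high library of its group, Cr2 went to -3.46, Fcer2a to -2.97 and Ms4a1 to -2.20, with 2 members at an unadjusted p under 0.05 and none called. The 25.2% above is from the fit with every library, so this count of 2 has no share beside it. The 20 other B cell genes had a median of -0.53 (1 higher and 2 lower at an unadjusted p under 0.05).

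**Figure D4:**
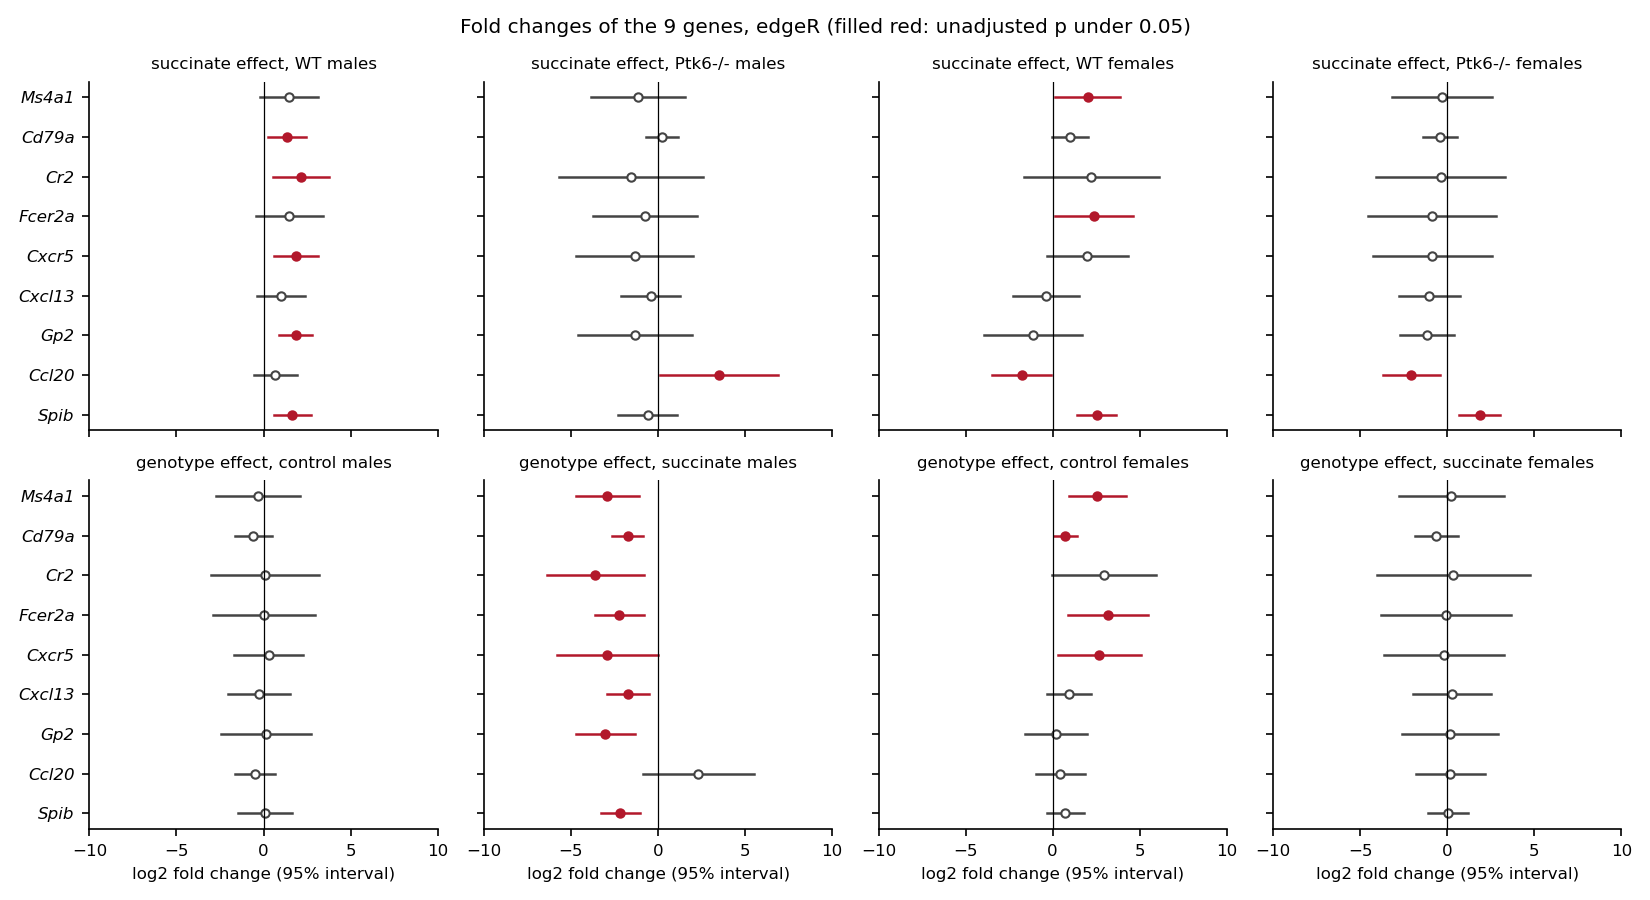
Log2 fold change with its 95% interval (x axis) of the 9 genes (y axis) in the 8 comparisons of 2 groups, from edgeR; filled red symbols have an unadjusted p under 0.05. The 8 genes other than Ccl20 are lower in Ptk6-/- males on succinate (median of the 9, -2.22), and all 9 have positive estimates in Ptk6-/- female controls and in WT males on succinate.

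In control females, all 9 genes had higher estimates in Ptk6-/- mice, with a median log2 fold change of 0.94 against 0.04 over all genes tested. An unadjusted p under 0.05 was reached by 4: Fcer2a at 3.17 (SE 0.983), Cxcr5 at 2.68 (SE 1.03), Ms4a1 at 2.56 (SE 0.701) and Cd79a at 0.73 (SE 0.282). Of all genes, 11.1% passed this threshold and 0.0158% were called. No member was called by edgeR (adjusted p from 0.367 for Ms4a1 to 0.942 for Gp2). Ms4a1 and Cd79a did not overlap between the genotypes, as 8.51% of all genes did not in that direction. DESeq2 called Ms4a1 (adjusted p = 0.0210) and Fcer2a (0.0264) among 263 genes in all, and voom called 7 among 2044. Leaving out single libraries moved the edgeR result both ways. Without Ptk6-/- female control replicate 3, whose sum of the 4 B cell genes was 3.49 CPM, edgeR called 3 members. They were Fcer2a (adjusted p = 0.0275), Ms4a1 (0.0278) and Cxcr5 (0.0499), among 1808 genes in all. With other omissions the edgeR adjusted p of each of the 3 reached 0.849. Their log2 fold changes ran from 2.10 to 3.44 for Ms4a1, 2.59 to 4.19 for Fcer2a and 1.93 to 4.43 for Cxcr5.

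Among the lists in this comparison, all 20 other B cell genes had higher estimates in Ptk6-/- females (median 1.45; 14 at an unadjusted p under 0.05). Cd37, a B cell tetraspanin, had 1.27 (SE 0.241), Cd22 2.08 (SE 0.595) and the IgM receptor Fcmr 3.12 (SE 0.911). The T cell list had a median of 0.72, with 4 of 10 passing and Cd4 at 1.01 (SE 0.268). The stromal list (median 0.05, 0 of 10), the germinal centre list (0.53, 0 of 8) and the M cell list (-0.04, 2 of 11) showed less. Lung genes had higher estimates too (median 9.06 over 4 genes, 3 passing and 1 called), and their part in the result was not tested.

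In females on succinate, loss of Ptk6 gave no member with an unadjusted p under 0.05 in edgeR, where 4.52% of all genes had one and 0% were called. No member was free of overlap, and 6.31% of all genes were higher without overlap. DESeq2 called 0 of the members, with 0 at an unadjusted p under 0.05. Ms4a1 had a log2 fold change of 0.23 with a 95% interval of -2.78 to 3.24, with 1 high Ptk6-/- library, and Spib one of 0.05 (95% interval -1.12 to 1.22). Without that library, Ptk6-/- female succinate replicate 3, Ms4a1 went to -3.13, Fcer2a to -4.13, Cr2 to -4.08 and Cxcr5 to -3.63, with 3 members at an unadjusted p under 0.05 and none called by edgeR. The 4.52% above is from the fit with every library, so this count of 3 has no share beside it. Without WT female succinate replicate 2, the library with the heart transcripts, Ms4a1 stood at 0.30 and Spib at 0.26, and edgeR called 0 of the members and 0 genes in all. Without WT female succinate replicate 3, Ms4a1 stood at 0.74 and Gp2 at 1.88, with no member called. Heart muscle genes had lower estimates in Ptk6-/- females here (median -7.65; 3 of 4 passing), and their part in the result was not tested.

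In WT females, succinate gave 3 members with higher and 1 with lower values at an unadjusted p under 0.05, where 7.77% of all genes passed and 0% were called. Spib had a log2 fold change of 2.53 (SE 0.489; edgeR adjusted p = 0.315), Fcer2a one of 2.36 (SE 0.964) and Ms4a1 one of 2.01 (SE 0.806), while Ccl20 was lower at -1.77 (SE 0.734). Spib was higher without overlap, as 5.95% of all genes were, and Ccl20 was lower without overlap, as 7.32% were. DESeq2 called Spib (adjusted p = 0.000158) among 258 genes in all. Leaving out WT female succinate replicate 3 let edgeR call it too (adjusted p = 0.0363), as 1 of 597 genes. That is the library with the lung and fat transcripts, and it had the highest Ms4a1 and Cr2 of its group. Without it Ms4a1 stood at 1.51 and Fcer2a at 2.21, neither with an unadjusted p under 0.05, Spib at 2.81 and Ccl20 at -2.37. Without replicate 2, which held the heart transcripts, Spib stood at 2.30, Fcer2a at 1.88, Ms4a1 at 1.93 and Ccl20 at -1.51, and none was called. Spib alone then had an unadjusted p under 0.05, while Fcer2a, Ms4a1 and Ccl20 no longer passed. Of the 20 other B cell genes 17 had higher estimates (median 1.33, 6 passing), with Ighm at 1.64 (SE 0.345) and Cd37 at 1.33 (SE 0.307). The T cell list had a median of -0.35, with 1 of 10 higher and 3 lower at an unadjusted p under 0.05. Tuft cell genes had higher estimates in 14 of 14 cases (median 2.41; 12 passing), and heart muscle genes in 4 of 5 (median 8.31; 4 passing). Smooth muscle genes had higher estimates in 6 of 6 cases (median 0.71; 2 passing), while 9 of 11 intestinal epithelial genes had lower ones (median -0.63; 1 passing). Their part in the result was not tested.

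In Ptk6-/- males, succinate left the B cell genes between -1.55 for Cr2 (95% interval -5.71 to 2.60) and 0.20 for Cd79a (95% interval -0.71 to 1.12). Only Ccl20 had an unadjusted p under 0.05 (7.75% of all genes did), and no member was called by edgeR (0% of all genes). DESeq2 gave no p for 3 of the 9, Cr2, Cxcr5 and Ccl20. Of the others it called 0, with 0 at an unadjusted p under 0.05. The edgeR log2 fold change of Ccl20, 3.49 (SE 1.45; adjusted p = 0.600), rests on replicate 2, and without that library it turned to -0.35 (adjusted p = 0.873). Without the shallow replicate 1 it was 3.99 (adjusted p = 0.441), and the other 8 lay between -1.30 for Cr2 and 0.18 for Cd79a with none passing. The estimates also turned on the high control library. Without Ptk6-/- male control replicate 2 Fcer2a went from -0.75 to 2.25, now the single member at an unadjusted p under 0.05, Ms4a1 from -1.14 to 0.68 and Spib to 0.41, while Ccl20 at 3.44 no longer passed, and Cr2 was not among the genes tested. No member was free of overlap, against 11% of all genes higher without overlap. Spib stood at -0.60 (SE 0.717) here. Of the 20 other B cell genes 16 had lower estimates (median -0.51, 0 passing). Heart muscle genes had higher ones in 5 of 5 cases (median 2.29, 3 passing), smooth muscle genes in 5 of 6 (median 0.53, 0 passing) and tuft cell genes in 11 of 14 (median 0.15, 1 passing). The heart genes summed to 210.6 CPM in the shallow replicate 1, against 42.4 CPM in replicate 2 and 38.2 CPM in replicate 3. Their part in the result was not tested.

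In Ptk6-/- females, succinate gave Spib a log2 fold change of 1.86 (SE 0.505; edgeR adjusted p = 0.345) and Ccl20 one of -2.06 (SE 0.705; adjusted p = 0.418), both at an unadjusted p under 0.05 (10.7% of all genes) and without overlap (11.2% of all genes were higher in that way and 10.1% lower). No member was called by edgeR, which called 0.0879% of all genes. DESeq2 called Spib (adjusted p = 0.0261) among 433 genes in all. The other 7 had lower estimates, from -0.32 for Ms4a1 to -1.17 for Gp2, with a 95% interval of -4.10 to 3.34 for Cr2, the widest of the 7. With 1 library left out at a time the estimates ran from -3.65 to 0.24 for Ms4a1 and from -4.77 to 0.21 for Cr2, so their size and sign turned on single libraries. Without Ptk6-/- female succinate replicate 3, the high library of its group, 8 members and not 2 had an unadjusted p under 0.05. Ms4a1 then stood at -3.65, Fcer2a at -4.90, Cxcl13 at -2.48 and Spib at 1.22, and edgeR called 0 members and 0 genes in all. The 10.7% above is from the fit with every library, so this count of 8 has no share beside it. The other B cell genes had lower estimates in 19 of 20 cases (median -0.47; 2 passing). So did the T cell list in 9 of 10 (median -0.81; 4 passing), with Cd4 at -1.55 (SE 0.407) and Cd8a at -1.06 (SE 0.309). Tuft cell genes had higher estimates (median 2.77; 13 of 14 passing and 3 called), and their part in the result was not tested.

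Whether the succinate effect differed between genotypes was tested as an interaction. In males, 8 of the 9 estimates were below 0 (median -2.25), and Spib alone had an unadjusted p under 0.05, with -2.24 (SE 0.925; adjusted p = 0.993), and -2.75 without the libraries that stood apart. Single libraries moved these values both ways. Without Ptk6-/- male control replicate 2 Spib stood at -1.20, Ms4a1 at -0.70, Cr2 at -0.14 and Fcer2a at 0.75, with 0 members at an unadjusted p under 0.05. Without WT male control replicate 1 there were 5 (Spib, Ms4a1, Cd79a, Cxcr5 and Cxcl13), with Spib at -2.99, and without Ptk6-/- male succinate replicate 1 Ccl20 alone passed, with Spib at -2.06. In these 3 fits edgeR called 0 members, and their counts of members passing have no share of all genes beside them. With every library of the males, no member was called by edgeR or DESeq2, and edgeR called 0% of all genes and had 3.8% at an unadjusted p under 0.05. DESeq2 had 2 members at that level. All 20 other B cell genes had negative interaction estimates in males (median -1.42; 1 passing). In females all 9 were below 0 (median -1.35), with 0 at an unadjusted p under 0.05 by edgeR, 1 by DESeq2 and 0 called by either (0% of all genes called and 6.46% passing by edgeR). Heart muscle genes (5 of 5, median -8.78; 4 passing), lung genes (4 of 4, median -8.05; 3 passing) and 18 of the 20 other B cell genes (median -1.73; 3 passing) also had estimates below 0 in females, and the part of the heart and lung transcripts in the result was not tested. Without WT female succinate replicate 2 Ms4a1 was at -2.24 and Cd79a at -0.73, and without replicate 3 of that group Ms4a1 was at -1.75 and Gp2 turned to 1.70. Without Ptk6-/- female succinate replicate 3 Ms4a1 went from -2.31 to -5.65, and 5 members had an unadjusted p under 0.05. In each of these fits edgeR called 0 members, and the count of 5 has no share of all genes beside it. The interaction of sex, genotype and succinate gave no member called by edgeR or DESeq2 and 0 at an unadjusted p under 0.05 by either (0% and 5.99% of all genes by edgeR). Without the libraries that stood apart, this interaction and that in females still had 0 members and 0 genes in all called by edgeR. Without WT female succinate replicate 3 the interaction of sex, genotype and succinate had 1 member at an unadjusted p under 0.05, Gp2 at -4.91, and 0 called.

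Averaged over both sexes and genotypes, 7 of the 9 members had higher estimates with succinate, and Spib was the single member called by edgeR. Over 12 control and 12 succinate libraries, Spib had a log2 fold change of 1.37 (SE 0.314, 95% interval 0.71 to 2.02, edgeR adjusted p = 0.0365), a 2.58-fold rise. DESeq2 gave the same call (1.36, adjusted p = 0.00143), beside 390 genes in all. By this comparison 0.728% of all genes were called and 16.1% had an unadjusted p under 0.05. Cd79a followed with 0.54 (SE 0.242, unadjusted p = 0.0366), and the other 7 did not pass. The adjusted p of Spib lay near the threshold: without the 3 libraries that stood apart it was 0.0373, and with 1 library left out at a time it ranged from 0.00776 to 0.0794, so that 16 of the 24 omissions ended the call. Without WT female succinate replicate 3 it was 0.0124, and without replicate 2 of that group 0.0713. The succinate effect was positive in 3 of the 4 pairs of groups, and Ptk6-/- males had the negative estimate given above.

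Tuft cell genes were among the 136 genes called higher on average. Of 15 tuft cell genes 12 were called on average (median log2 fold change 1.67), among them the actin-binding Avil (1.67, SE 0.208), the cation channel Trpm5 (1.56, SE 0.202) and Sh2d6 (1.898, SE 0.275). Summed over the list, tuft cell genes had 78.3 to 82.7 CPM in WT male controls and 119.9 to 160.3 CPM in WT males on succinate, 74.8 to 80.3 CPM in Ptk6-/- male controls and 57.6 to 118.0 CPM in Ptk6-/- males on succinate. In females the sums were 66.4 to 98.8 CPM in WT controls against 173.5 to 499.2 CPM on succinate, and 66.1 to 81.0 CPM in Ptk6-/- controls against 252.2 to 533.0 CPM on succinate. Spib correlated with the mean of this list at r = 0.853 (0.654 within groups) and with the 20 other B cell genes at 0.628 (0.846 within groups). Ms4a1 correlated with the tuft list at 0.164. The share of each cell type in the Spib signal was not tested.

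**Figure D5:**
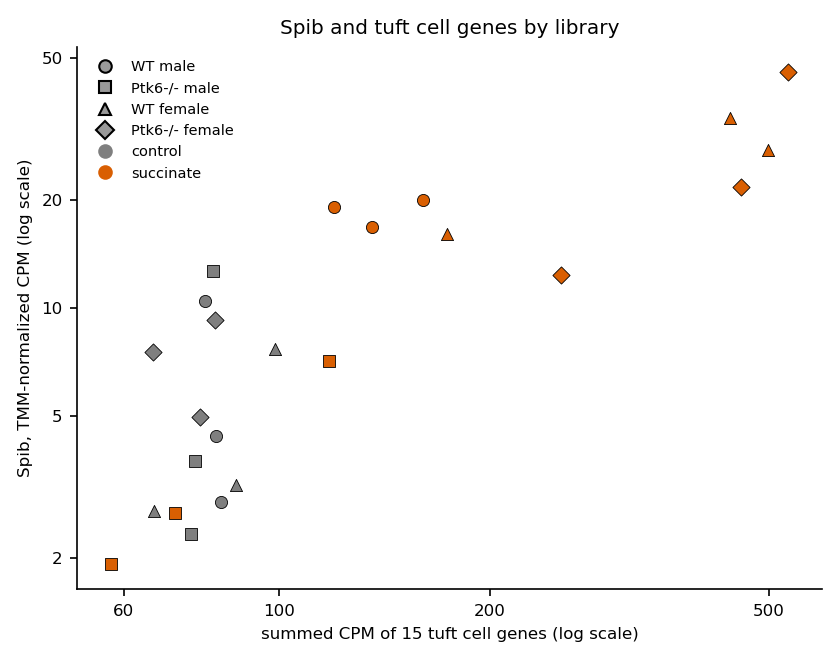
Spib level (y axis, TMM-normalized CPM, log scale) against the summed CPM of 15 tuft cell genes (x axis, log scale) in 24 libraries; shape gives sex and genotype, colour the treatment. Control libraries sit below 100 CPM of tuft genes with Spib from 2.33 to 12.7 CPM, and the libraries with the highest tuft sums are females on succinate.

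The follicle, M cell and plasma cell lists held few calls in the average succinate effect. Of the stromal list Tnfsf13b, which codes for the B cell survival factor BAFF, rose by 1.16 (SE 0.222, edgeR adjusted p = 0.0100), and all 10 genes had positive estimates (median 0.34; 3 at an unadjusted p under 0.05). The M cell and follicle-associated epithelium list had a median of 0.09, with Marcksl1 called (1.09, SE 0.260, adjusted p = 0.0441) and Ccl9 (0.76, SE 0.242) and Tnfrsf11a, the RANK receptor through which M cells are induced (-0.52, SE 0.162), on opposite sides at adjusted p of 0.152 and 0.141. Of the germinal centre list only Rgs13 was called (1.82, SE 0.326), which the tuft cell list holds too. The 20 other B cell genes had a median of 0.28, with 2 higher and 1 lower at an unadjusted p under 0.05 and none called. The plasma cell list had a median of -0.14 (1 of 8 passing, lower). Of the T cell list 4 of 10 passed, all lower (median -0.27), and none was called. Of the intestinal epithelial genes 7 of 11 passed, 2 higher and 5 lower (median -0.50), and none was called. Smooth muscle genes had a median of 0.79, with 4 of 6 passing, all higher, and Actg2, a smooth muscle actin, called (1.12, SE 0.256, edgeR adjusted p = 0.0355), and heart muscle genes one of 2.27, with 2 of 6 passing. Their part in the change of Spib was not tested.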

How the data were processed

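Poly(A) RNA of 24 distal jejunum samples was sequenced from stranded libraries with 150-base paired reads. The count values were deposited by the authors as unnormalized counts per gene. The deposited FPKM values were estimated by the authors (StringTie, then ballgown). The submitters' processing notes name GRCm39, FastQC and StringTie. The counting program is not given in the sources used here. Every column was mapped to a sample, and all 24 libraries entered the comparisons.

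The software was R 4.3.3 with the data.table package (version 1.17.8), DESeq2 1.42.0, limma 3.58.1 and edgeR 4.0.16, and Python 3.11.15 with matplotlib 3.10.9 for the figures. The quasi-likelihood test of edgeR was applied to counts with TMM factors in 12 comparisons, keeping genes that reached 10 counts in 3 or more of the libraries compared. A call needed a 2-fold difference and an adjusted p (Benjamini-Hochberg, over all genes tested) under 0.05. The shares of all genes passing or called are from the fits with every library. Counts of members passing with a library left out have no such share beside them. Of each gene list, counts, the median and up to 3 genes with the smallest p in a comparison are given. Sox8, Tnfrsf11b, Aif1 and Pglyrp1 were named after their values were seen. A count of 3 was the floor. Intervals and floors cover counting error and the spread between these mice only. The alternatives were DESeq2, its size factors, other filters, voom with library weights, limma on log2(FPKM + 0.1) and log2(FPKM + 1), a gene length offset, the replicate number as a block, 1 fit of all 24 libraries, calls without the fold threshold, leaving out each library, and, chosen after the values were seen, leaving out the libraries that stood apart. The test was checked on simulated data. The genes and lists were chosen with earlier results of these data known.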

Additional observations from a re-analysis of the deposited data

How the results depend on the processing

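By edgeR none of the 9 genes was called in 11 of the 12 comparisons, and these counts were the same under every alternative run except the following. For the genotype effect in succinate males DESeq2 called 4 and voom 8. For the genotype effect in control females DESeq2 called 2 and voom 7, and leaving out 1 library at a time gave 0 to 3. For succinate in WT males DESeq2 called 1, voom 8, limma on log2(FPKM + 0.1) 3 and limma on log2(FPKM + 1) 1, and leaving out 1 library gave 0 to 1. For succinate in WT females DESeq2 called 1, and leaving out 1 library gave 0 to 1. For succinate in Ptk6-/- females DESeq2 called 1. The average succinate effect, with 1 gene called (Spib), fell to 0 with 10 counts in every library, with the replicate block, with limma on log2(FPKM + 0.1) with or without the filter, and to 0 to 1 with 1 library left out. The cause of these changes was not tested. With 10 counts in every library Spib was not among the genes tested.

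Replicate numbers did not pair the libraries: the correlations of same-numbered libraries lay between -0.49 and 0.35, no comparison had all 3 pairs over 0.1, and at most 1 of 3 libraries correlated best with its own number. With the replicate block the adjusted p of Spib in the average succinate effect was 0.0611 (log2 fold change 1.41), and no other count of called members changed with it.

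The log2 fold change of Ccl20 for succinate in Ptk6-/- males ranged from -0.35 (without succinate replicate 2) to 4.03 with 1 library left out. Under the alternatives other than leaving out each library in turn, estimates of members changed sign in 30 of 115 cases for the genotype effect in control males and in 16 of 111 for that in succinate females, and in 2 of 109 for that in succinate males and 0 of 116 for succinate in WT males. Leaving out single libraries, the same 4 comparisons gave 18, 22, 1 and 0 of 54. Voom called 647 to 2044 genes in all for the genotype effects in control males, control females and succinate males and for succinate in WT males, so its member counts stand beside many calls. The median counts of Gp2, Ccl20 and Cr2 (24, 39 and 42 per library) limit what could be detected for these genes.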

Other observations

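The library with the high Ccl20 level, Ptk6-/- male succinate replicate 2, was looked at after its value was seen. Leaving aside immunoglobulin genes and genes with Gm or Rik names, of 10302 genes with at least 5 CPM in that library, 4 stood at least 2 times above every other library. Ccl20 led, at 28.5 CPM against 3.62 CPM in the next library. Nos2, the inducible nitric oxide synthase, had 1056 CPM against 402 CPM, the apoptosis gene Bid 50.9 CPM against 23.2 CPM, and Tlr2, a receptor for bacterial lipoproteins, 14.7 CPM against 6.85 CPM. The sum of Ms4a1, Cr2, Fcer2a and Cxcr5 was 1.37 CPM in this library and Gp2 was at 0.427 CPM, so its B cell genes were among the lower ones of the 24.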
